A study of Mus musculus with 24 samples.

Results

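The 9 genes described here encode the Pax, Six-family and Eya factors that act upstream of the myogenic regulatory factors: Pax3, Pax7, Six2, Six4, Six5, Eya1, Eya2, Eya3 and Eya4. They were taken by symbol from the authors' gene table, in which they are 9 of 24043 rows, and 6 of the 9 had a mean of at least 1 FPKM (fragments normalised to transcript length and library size) in at least 1 group. The cells were C2C12, an established mouse myoblast line that proliferates in growth medium and forms multinucleated myotubes in differentiation medium. RNA-seq was made from 2 libraries, replicates A and B, of each of 4 groups, for 8 libraries in all. All 4 groups are the same line, for which the labels name no transgene or deletion, and they differ in the medium and the oxygen. Growth medium (GM) held 10% fetal bovine serum, and differentiation medium (DM) held 2% horse serum and a supplement of insulin, transferrin and selenium. Each medium was used at 21% oxygen (called normoxic below) and at 2% oxygen (hypoxic). The labels call A and B biological replicates but do not say whether they came from separate cultures, so p-values measure the spread between these libraries, which may be partly technical.

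Pax proteins bind DNA through a paired domain and a homeodomain. Pax7 marks satellite cells, the stem cells of adult muscle, and Pax3 acts mainly in the migrating muscle precursors of the embryo; both act upstream of Myf5 and Myod1. Six-family proteins are homeodomain factors that bind the MEF3 motif in muscle promoters. Eya proteins do not bind DNA themselves: they are tyrosine phosphatases that join Six-family proteins as coactivators. The design allows the level of each factor to be compared between media at either oxygen level and between oxygen levels in either medium.

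The label of the cells was checked on markers first. All 7 myoblast markers (Myod1, Myf5, Des, Cdh15, Itga7, Chrna1 and Vcam1) were above 0 in every library, with a summed level of 1372 and 1378 FPKM in normoxic DM, 620 and 715 FPKM in normoxic GM, and 145 to 216 FPKM in the 4 hypoxic libraries. None of the 5 endothelial, 5 neural or 5 epithelial markers reached 1 FPKM in any library. Of the 5 macrophage markers, Cd68 was at 25.8 and 42.8 FPKM in hypoxic DM against 1.76 to 3.57 FPKM in the other 6 libraries, while Emr1 was listed at 0 in all 8 libraries and Ptprc in all but 1. Cd14 was at 7.20 and 11.4 FPKM in hypoxic DM, 9.90 to 11.1 FPKM in the GM libraries and 1.81 and 1.79 FPKM in normoxic DM. It was therefore not raised over GM in hypoxic DM as Cd68 was. The summed level of these 5 was 33.0 and 54.4 FPKM in hypoxic DM and 3.65 to 14.4 FPKM elsewhere. Its part in the member results was not tested. Of the 5 adipocyte markers, 4 were below 1 FPKM in every library. The oxygen labels were checked on Car9, a carbonic anhydrase gene induced by HIF factors, which had 47.3 ± 4.76 and 73.1 ± 14.3 FPKM (SD, n = 2) in the normoxic GM and DM groups against 834 ± 28.0 and 774 ± 158 FPKM in the hypoxic ones. In hypoxic DM the replicates stood apart: 613 tested genes differed more than 2-fold between them, against 56 to 71 in the other groups. All 12 cell cycle genes examined were higher in its replicate B, with a median log2(FPKM + 1) of 4.78 against 2.46 in replicate A. Member calls that rest on this group are therefore given with and without each of its libraries.

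Promoter windows were examined because Six-family proteins act through the MEF3 motif. Those of Pax7, Six4 and Six5, which changed between media or oxygen levels past the threshold, are printed. RefSeq windows on GRCm38.p6 run from 250 bases before to 50 after a gene start and are printed 5′ to 3′, with matches to MEF3, searched as TCAGGTT on both strands, in capitals. A window was present for 6 of the 9 genes. The first of the 2 Six4 windows held MEF3 on the reverse strand, starting at position -97 from the gene start. For comparison, the promoter of Myog, the myogenin gene and a known target of these factors, held it on the forward strand at position -84.
Six4 promoter, chr12:73113196-73113495, minus strand: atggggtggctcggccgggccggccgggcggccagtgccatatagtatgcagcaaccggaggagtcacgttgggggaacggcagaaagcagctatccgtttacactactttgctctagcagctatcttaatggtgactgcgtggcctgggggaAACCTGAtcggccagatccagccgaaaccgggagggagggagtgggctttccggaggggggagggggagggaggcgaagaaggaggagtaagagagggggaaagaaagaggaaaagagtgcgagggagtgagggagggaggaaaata
Myog promoter, chr1:134289754-134290053, plus strand: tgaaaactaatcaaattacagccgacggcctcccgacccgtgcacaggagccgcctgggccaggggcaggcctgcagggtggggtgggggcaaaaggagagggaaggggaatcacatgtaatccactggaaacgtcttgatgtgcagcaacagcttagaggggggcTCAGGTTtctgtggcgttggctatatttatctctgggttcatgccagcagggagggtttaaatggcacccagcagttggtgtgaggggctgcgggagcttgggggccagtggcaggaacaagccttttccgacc
Pax7 promoter, chr4:139832919-139833218, minus strand: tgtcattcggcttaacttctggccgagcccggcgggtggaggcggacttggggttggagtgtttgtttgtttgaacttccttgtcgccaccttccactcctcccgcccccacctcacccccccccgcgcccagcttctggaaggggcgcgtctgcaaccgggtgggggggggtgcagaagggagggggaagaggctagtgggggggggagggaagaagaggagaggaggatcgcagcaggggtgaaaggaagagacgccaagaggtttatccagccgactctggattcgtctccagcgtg
Six5 promoter, chr7:19094294-19094593, plus strand: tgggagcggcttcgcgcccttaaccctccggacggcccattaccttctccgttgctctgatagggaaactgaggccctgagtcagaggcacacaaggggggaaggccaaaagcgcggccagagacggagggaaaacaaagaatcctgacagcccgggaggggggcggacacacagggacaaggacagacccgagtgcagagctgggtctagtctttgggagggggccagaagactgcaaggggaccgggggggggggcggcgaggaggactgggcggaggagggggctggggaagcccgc
The Pax7 and Six5 windows held no match to the letters searched, and neither did those of Six2, Eya3 and Eya4. MEF3 was present in 4.07% of all 32851 windows in the RefSeq table. Among 12 Six-Eya linked genes with a window, Myog and Mef2c held it. The E-box CAGCTG, a motif that MyoD binds, was present in 16.3% of all windows, in 0 of the 6 genes above and in 3 of the 12 linked genes (Aldoa, Eno3 and Atp2a1). The letters of the 2 motifs do not overlap in the windows printed, none of which held CAGCTG. Other forms of the E-box were not searched. The counts of genes take a match in any window of a gene, so they are not on the scale of the shares of windows. Mef2c and Aldoa each held their match in 1 of 3 windows. A match describes the letters alone.

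Pax7 was detected in every group and was lower with either change of condition. Its level was 26.6 and 27.3 FPKM in the A and B libraries of normoxic GM, 15.6 and 15.9 FPKM in hypoxic GM, 15.9 and 15.1 FPKM in normoxic DM, and 10.2 and 8.96 FPKM in hypoxic DM. The normoxic GM libraries lay above all others, the hypoxic DM libraries below all others, and the groups between them overlapped. DM lowered Pax7 at a log2 change of -0.76 ± 0.09 (SE; limma adjusted p 0.000338) in normoxia, a 1.74-fold lower FPKM, and at -0.66 ± 0.09 (adjusted p 0.00211) in hypoxia, a 1.64-fold lower FPKM. All log2 changes here are differences of log2(FPKM + 1), which understate the change of genes near 1 FPKM. Hypoxia lowered Pax7, at -0.74 ± 0.09 in GM (adjusted p 0.00108) and at -0.64 ± 0.09 in DM (adjusted p 0.000771). In log2 terms the size of the medium change was not called different between oxygen levels: the difference was 0.10 with a 95% interval from -0.20 to 0.40 (adjusted p 0.53). The drop with medium in hypoxia was -0.75 without replicate A and -0.58 without replicate B of hypoxic DM, and the drop with hypoxia in DM was -0.73 and -0.56. Since these are bulk libraries, fewer cells with Pax7 RNA and less Pax7 RNA per cell cannot be told apart, here and for each gene below.

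Pax3 was at the edge of detection. It was listed at 0.0196 and 0.0453 FPKM in normoxic GM, 0.0610 and 0 in hypoxic GM, 0 and 0.0159 in normoxic DM, and 0.0136 and 0 in hypoxic DM. After correction for relative depth, which was read from the steps of low values and ranged from 0.633 to 1 across libraries, the 5 values above 0 were 1, 3, 4, 1 and 1 times one common step, with no value more than 3.87e-05 of a step from a whole number. If that step is 1 fragment, the Pax3 level rests on 10 fragments over all 8 libraries, and the limit set by 3 fragments, for a count of 0, lay between 0.0407 and 0.0644 FPKM and covers counting error alone. No difference in Pax3 was detectable at this depth. Pax7 exceeded Pax3 in every library on this per-length scale.

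**Figure D1:**
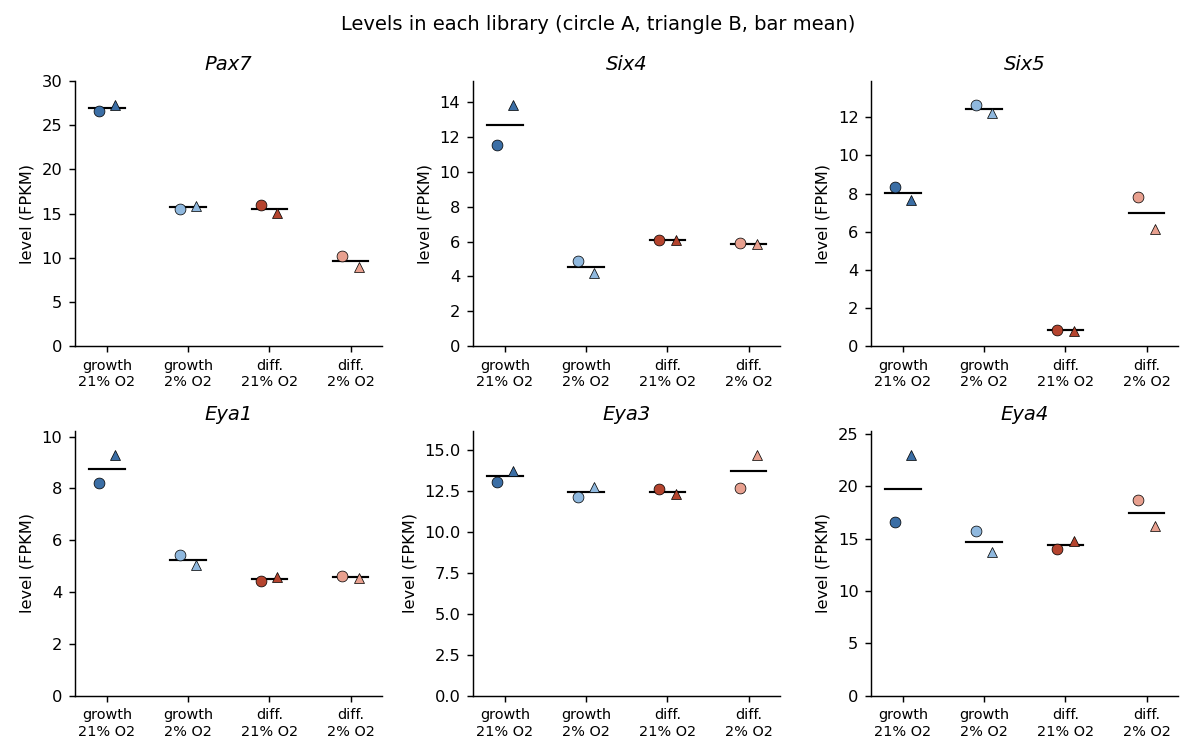
Levels in FPKM (vertical axes, from 0) of Pax7, Six4, Six5, Eya1, Eya3 and Eya4 in each library, by group; circles are replicate A, triangles replicate B and bars the group mean. Pax7, Six4 and Eya1 were highest in normoxic GM, Six5 was lowest in normoxic DM at 0.858 and 0.797 FPKM, and Eya3 stayed between 12.2 and 14.7 FPKM.

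Six4, which can act with Eya coactivators on MEF3 sites, was highest in normoxic GM. Its level there was 11.6 and 13.8 FPKM, against 4.88 and 4.18 FPKM in hypoxic GM, 6.09 and 6.11 FPKM in normoxic DM, and 5.92 and 5.84 FPKM in hypoxic DM. The normoxic GM libraries did not overlap with any other, and the hypoxic GM libraries were the lowest. Six4 fell with DM in normoxia, at -0.94 ± 0.12 (limma adjusted p 0.000487) and with hypoxia in GM, at -1.31 ± 0.12 (adjusted p 0.000379), a 2.80-fold lower FPKM. In DM no difference between oxygen levels was called, at -0.05 with a 95% interval from -0.33 to 0.24 (adjusted p 0.754). The change with medium in hypoxia was 0.32 ± 0.12 and did not pass the threshold (adjusted p 0.0733). The medium changes at the 2 oxygen levels differed by 1.26 ± 0.17 (adjusted p 0.00109), and this difference was 1.25 without replicate A and 1.27 without replicate B of hypoxic DM. The span of Six4 overlaps that of Mnat1 in the RefSeq annotation, and Mnat1 was at 16.0 ± 0.212, 12.2 ± 0.542, 16.5 ± 0.136 and 11.1 ± 2.55 FPKM in the same order of groups. How reads in overlapping genes were assigned is not given in the sources used here.

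Six5, the homeodomain gene next to the myotonic dystrophy kinase gene Dmpk, had the largest changes of the 6 tested genes in each comparison but hypoxia in GM, where Six4, Pax7 and Eya1 changed more, and a different order of groups. It was at 8.36 and 7.68 FPKM in normoxic GM, 12.6 and 12.2 FPKM in hypoxic GM, 0.858 and 0.797 FPKM in normoxic DM, and 7.82 and 6.12 FPKM in hypoxic DM. The normoxic DM libraries lay far below the other 6, and the hypoxic GM libraries lay above them. Six5 fell with DM in normoxia, at -2.30 ± 0.13 (limma adjusted p 1.25e-05), a 9.69-fold lower FPKM, and in hypoxia at -0.76 ± 0.13 (adjusted p 0.0045), a 1.78-fold lower FPKM. The difference between these medium changes was 1.54 ± 0.18 (adjusted p 0.000601). Without replicate A and without replicate B of hypoxic DM, the change in hypoxia was -0.92 and -0.61, and the difference was 1.39 and 1.70. Hypoxia raised Six5 by 2.12 ± 0.13 in DM (adjusted p 1.61e-05), an 8.42-fold higher FPKM, and this rise was 1.96 without replicate A and 2.27 without replicate B of the hypoxic group. In GM the rise with hypoxia was 0.58 ± 0.13 (adjusted p 0.0117). That call was lost without normoxic GM replicate B (adjusted p 0.0576) and without hypoxic GM replicate A (0.0757) or B (0.0605).

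The neighbours of Six5 were read beside it because the annotated spans lie close together. Dmpk, the preceding gene, was at 80.6 and 68.9 FPKM in normoxic GM, 55.4 and 58.9 FPKM in hypoxic GM, 139 and 134 FPKM in normoxic DM, and 26.7 and 42.8 FPKM in hypoxic DM. The lowest Six5 values and the highest Dmpk values were therefore in the same libraries. Dmpk rose by 0.86 ± 0.20 with DM in normoxia (limma adjusted p 0.00861) and was lower, at -1.98 ± 0.20 with hypoxia in DM (adjusted p 0.000187), each opposite in sign to Six5. With DM in hypoxia both genes were lower, Dmpk at -0.74 ± 0.20 (adjusted p 0.0279) and Six5 at -0.76, and for hypoxia in GM Dmpk was at -0.38 and did not pass (adjusted p 0.181). The rise of Dmpk in normoxia was lost without normoxic GM replicate B (adjusted p 0.057) or normoxic DM replicate A (0.0548). Its fall with DM in hypoxia was lost without any 1 of the normoxic DM or hypoxic GM libraries (adjusted p 0.0628 to 0.13) and was -0.41 without hypoxic DM replicate A. The span of Six5 also overlaps that of Bhmg1.

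Six2, a Six-family gene best known from kidney progenitors, was at the edge of detection. It was above 0 in 3 libraries, at 0.0326 and 0.0503 FPKM in normoxic GM and 0.0763 FPKM in hypoxic GM replicate A, which are 1, 2 and 3 times one step after depth correction. It was listed at 0 in the other 5 libraries, where a count of 0 allows 0.0679 to 0.107 FPKM. No difference in Six2 was detectable.

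Among the Eya coactivators, Eya1 followed the order of Six4 in part. Its level was 8.22 and 9.30 FPKM in normoxic GM, 5.41 and 5.05 FPKM in hypoxic GM, 4.43 and 4.56 FPKM in normoxic DM, and 4.60 and 4.55 FPKM in hypoxic DM. Normoxic GM stood above the other 3 groups, and the DM groups overlapped. Eya1 fell with DM in normoxia, at -0.83 ± 0.10 (limma adjusted p 0.000411) and with hypoxia in GM, at -0.65 ± 0.10 (adjusted p 0.00303). Its change with medium in hypoxia was -0.16 with a 95% interval from -0.40 to 0.08 (adjusted p 0.25), and the oxygen difference in DM was 0.02, from -0.22 to 0.26 (adjusted p 0.865). The difference between the medium changes was 0.67 ± 0.14 (adjusted p 0.00766), or 0.66 without replicate A and 0.67 without replicate B of hypoxic DM. It did not pass the threshold after median-of-ratios scaling of the libraries (0.39, adjusted p 0.0711).

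Eya4 was the most abundant Eya gene on this per-length scale in all 8 libraries. It was at 16.6 and 23.0 FPKM in normoxic GM, 15.7 and 13.7 FPKM in hypoxic GM, 14.0 and 14.8 FPKM in normoxic DM, and 18.7 and 16.2 FPKM in hypoxic DM. The normoxic GM replicates lay further apart than the lowest and highest of the 4 hypoxic libraries, and the groups overlapped. No single comparison passed the threshold. The change with medium in normoxia was -0.42 ± 0.16 (limma adjusted p 0.0573), and it was -0.64 without normoxic GM replicate A (adjusted p 0.0107) and -0.19 without replicate B (adjusted p 0.268). Hypoxia in GM gave -0.39 ± 0.16 (adjusted p 0.0975), and was -0.62 without normoxic GM replicate A (adjusted p 0.0254) and -0.16 without replicate B (adjusted p 0.387). The difference between the medium changes passed narrowly, at 0.65 ± 0.23 (adjusted p 0.0498), and was lost after both scalings of the libraries and in 6 of the 8 fits that leave out 1 library. It passed without normoxic GM replicate A (0.88, adjusted p 0.0119) and without hypoxic DM replicate B (0.75, adjusted p 0.0421), and was lost without hypoxic DM replicate A (0.55, adjusted p 0.0964) and without normoxic GM replicate B (0.42, adjusted p 0.0959). Either library of normoxic DM or of hypoxic GM also ended the call when left out (adjusted p 0.0766 to 0.152).

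Eya3 had the flattest profile of the 6 tested genes. Its level was 13.1 and 13.7 FPKM in normoxic GM, 12.2 and 12.8 FPKM in hypoxic GM, 12.6 and 12.3 FPKM in normoxic DM, and 12.7 and 14.7 FPKM in hypoxic DM. None of its comparisons passed the threshold, with log2 changes from -0.10 to 0.12 and 95% intervals that reached no further than -0.33 and 0.36. The difference between its medium changes was 0.22 (limma adjusted p 0.211) and was 0.32 without hypoxic DM replicate A (adjusted p 0.0408) and 0.12 without replicate B (adjusted p 0.371).

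Eya2 was low throughout. It was at 0.119 and 0.138 FPKM in normoxic GM, 0.0233 and 0.0247 FPKM in hypoxic GM, 0.0304 and 0.0242 FPKM in normoxic DM, and 0.0207 and 0.0655 FPKM in hypoxic DM. In steps these are 4 and 6, then 1 and 1, 1 and 1, and 1 and 2, so only the normoxic GM libraries were above the 3 steps that a count of 0 allows. Eya2 did not pass the expression minimum and is not among the tested genes.

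**Figure D2:**
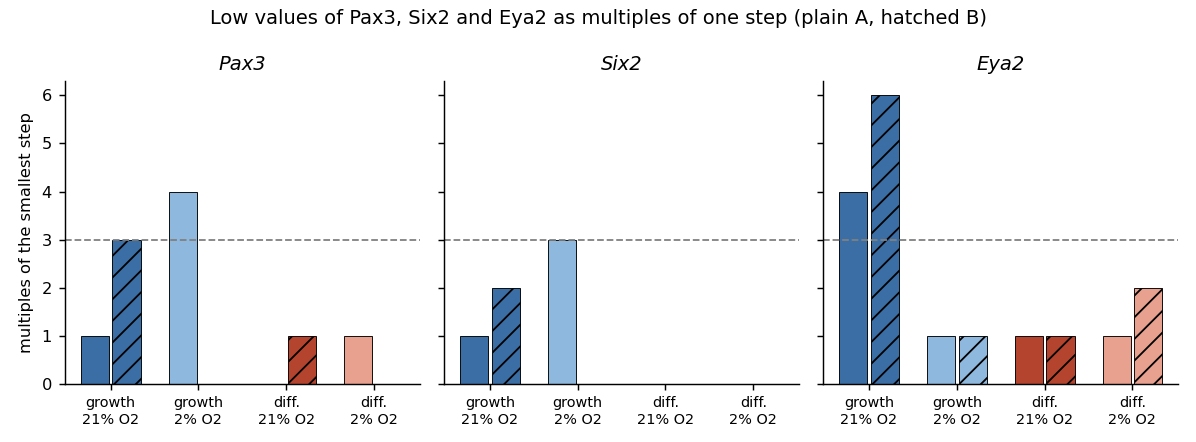
Values of Pax3, Six2 and Eya2 in each library as whole multiples of each gene's smallest step after correction for relative depth (vertical axis), by group; plain bars are replicate A, hatched bars replicate B and the dashed line marks 3 steps. Eya2 reaches 4 and 6 steps in normoxic GM and at most 2 elsewhere, and Pax3 reaches 3 or 4 in 2 libraries.

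Counted by comparison, 4 of the 6 tested genes (Pax7, Six4, Six5 and Eya1) were lower in DM than in GM in normoxia, where 41% of all 12389 tested genes were called lower, 25.5% higher and 66.5% in either direction. The median change of the 6 genes was -0.79 and that of all tested genes -0.20. In hypoxia Pax7 and Six5 were lower and the other 4 did not pass, where 17.6% of all genes were called lower, 23.3% higher and 40.9% in either direction. The members' median was -0.02 and that of all genes 0.07. In GM hypoxia lowered Pax7, Six4 and Eya1, and 28% of all genes were called lower; it raised Six5, and 13.5% were called higher, for 41.4% in either direction. The comparisons share groups with each other, so their values are not independent. In DM hypoxia raised Six5 and lowered Pax7, where 37.5% of all genes were called higher, 27.7% lower and 65.2% in either direction. The median of the 6 genes was -0.52 in the first of these comparisons and 0.07 in the second, against -0.14 and 0.15 for all genes.

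The medium change was more positive in hypoxia than in normoxia for Six4, Six5, Eya1 and Eya4, and 35.4% of all tested genes were called so, 18.7% the other way and 54.1% in either direction. The median difference was 0.66 for the 6 genes and 0.27 for all genes. After median-of-ratios scaling the median of all genes moved to -0.01, and Six4 (0.97, limma adjusted p 0.00409) and Six5 (1.32, adjusted p 0.00254) passed the threshold while Eya1 and Eya4 did not. Scaling also moved the normoxic medium change, with the median of all genes at 0.02 in place of -0.20. The changes of Pax7 (-0.50), Six4 (-0.70), Six5 (-2.12) and Eya1 (-0.59) kept their direction and their calls under it. With the median of all genes subtracted on the deposited scale, these 4 changes were -0.56, -0.74, -2.10 and -0.63.

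**Figure D3:**
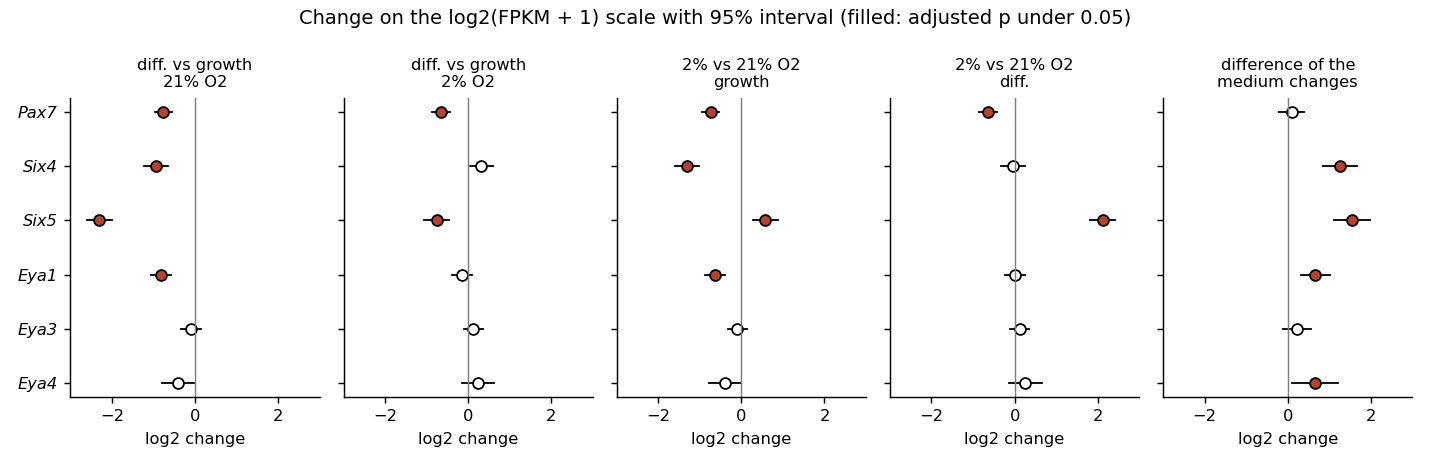
Change of each tested gene on the log2(FPKM + 1) scale (horizontal axes) in the 4 comparisons and, at the right, the medium change in hypoxia minus that in normoxia; points are limma estimates, lines 95% intervals and filled points have an adjusted p under 0.05. Pax7 lies to the left of 0 in all 4 comparisons, and Six5 lies at -2.30 for the medium change in normoxia and at 2.12 for hypoxia in DM.

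Ratios within a library do not depend on its scaling and show how the factors moved against each other. The ratio of Six4 to Six5 was 1.38 and 1.80 in normoxic GM, 0.386 and 0.342 in hypoxic GM, 7.10 and 7.67 in normoxic DM, and 0.757 and 0.955 in hypoxic DM. Six4 thus exceeded Six5 in every normoxic library and was below it in every hypoxic library. Within the Eya family, Eya1 took 20.9% ± 1.07 (SD, n = 2) of the summed FPKM in normoxic GM, 16.1% ± 0.176 in hypoxic GM, 14.3% ± 0.106 in normoxic DM and 12.8% ± 0.0153 in hypoxic DM. Eya4 took 45.3% to 48.8% in the group means and Eya3 32.1% to 39.8%, with replicates that differed by up to several percentage points.

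Pax7 was also set against the myogenic regulatory factors, the helix-loop-helix proteins that commit cells to muscle. Relative to Myod1, which is expressed in myoblasts and early myotubes, Pax7 was at 0.192 and 0.252 in normoxic GM, 0.621 and 0.608 in hypoxic GM, 0.0883 and 0.0879 in normoxic DM, and 1.47 and 0.759 in hypoxic DM. The ratio was higher in each hypoxic library than in each normoxic one, although the Pax7 level itself was lower in hypoxia. Myod1 was at 139 and 108 FPKM in normoxic GM and at 6.95 and 11.8 FPKM in hypoxic DM. Relative to Myf5, the earliest of these factors in the embryo, Pax7 was at 0.518 in both normoxic DM libraries and between 1.06 and 1.66 in the other 6.

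**Figure D4:**
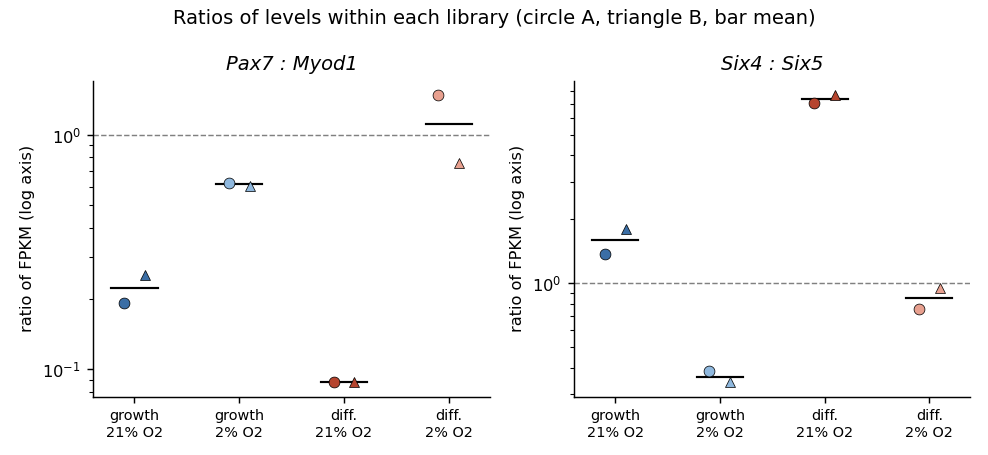
Ratio of Pax7 to Myod1 (left) and of Six4 to Six5 (right) in FPKM within each library, on log axes, by group; circles are replicate A, triangles replicate B, bars the group mean and the dashed line a ratio of 1. The Pax7 to Myod1 ratio is lowest in normoxic DM at 0.0883 and 0.0879, and the Six4 to Six5 ratio is highest there at 7.10 and 7.67.

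Genes linked to these factors were read in lists. Of the 4 myogenic regulatory factors, Myog, Myf6 and Myf5 rose with DM in normoxia, while Myod1 changed by 0.52 ± 0.22 and did not pass (limma adjusted p 0.0782). All 4 were lower with hypoxia in DM, Myog at -9.30 ± 0.28 (adjusted p 8.51e-07) and Myf5, at -1.70 ± 0.08 (adjusted p 4.62e-06). Myf5 was at 20.0 and 20.0 FPKM in normoxic GM, 9.89 and 9.55 FPKM in hypoxic GM, 30.7 and 29.1 FPKM in normoxic DM and 8.58 and 8.45 FPKM in hypoxic DM, so its order of groups differed from that of Pax7. Myog reached 2576 and 2642 FPKM in normoxic DM, which is 423 and 432 times Six4 in the same libraries, and 0.638 to 1.15 times Six4 in normoxic GM.

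Of 24 genes linked to Pax3 and Pax7 in precursors and satellite cells, 19 were tested. With DM in normoxia 10 were lower and 5 higher, or 8 and 8 after median-of-ratios scaling, and the list median was -0.33. The falls were led by Cxcr4, a chemokine receptor of migrating precursors (-2.60 ± 0.09), and Cd34 (-2.56 ± 0.18), and the rises by Itm2a (3.30 ± 0.21) and Spry1, a receptor signalling inhibitor of quiescent satellite cells (2.05 ± 0.10). With hypoxia in GM 14 were lower, 2 were higher and the median was -0.97, led by Fgfr4 (-3.70 ± 0.13) and Vcam1 (-3.60 ± 0.15); the syndecans Sdc3 (1.58 ± 0.09) and Sdc4 (1.23 ± 0.10) were those that rose. With DM in hypoxia 6 were higher and 4 lower, and the median was 0.04. Of the 4 falls, those of Dmrt2 (-0.51) and Msc (-0.39) were not called without either hypoxic GM library. Msc passed the expression minimum only through normoxic DM, at a mean of 1.06 FPKM. Its call as lower with hypoxia in DM rests on that group. Among the rises, Itm2a (0.68) and Cav1 (0.44) kept their calls only in the fit without hypoxic DM replicate B. Without hypoxic DM replicate A their rises were 0.35 and 0.24. With all libraries kept, DM in hypoxia lowered Id3, an inhibitor of helix-loop-helix factors (-2.54 ± 0.26), and Cxcr4 (-1.26 ± 0.09). It raised Itga7 (1.45 ± 0.19) and Cd34 (1.17 ± 0.18). With hypoxia in DM 11 were lower, 7 were higher and the median was -1.57, led by Heyl (-2.97 ± 0.11) and Cdh15 (-2.71 ± 0.11) among the falls and Cd34 (3.57 ± 0.18) and Cav1 (2.65 ± 0.14) among the rises. The shares of all genes called in these comparisons are those given above.

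Of 19 genes linked to Six-family and Eya factors, 18 were tested. With DM in normoxia 16 rose and 2 fell, with a list median of 2.85. There 25.5% of all tested genes were called higher and 41% lower, and their median was -0.20. The shares for the other comparisons are those given above. Six4, Six5 and Eya1 themselves were lower with DM in normoxia, and whether their level bears on these genes was not tested. The fast troponin genes Tnnc2 (8.96 ± 0.28) and Tnnt3 (8.57 ± 0.26) rose most, and the cyclin gene Ccnd1 (-1.27 ± 0.29) and Ezr (-1.05 ± 0.22) fell; Ccnd1 was not called without normoxic DM replicate B (adjusted p 0.056). In hypoxia the same change of medium raised 4 and lowered 3 of the 18, with a median of 0.13. Without replicate B of hypoxic DM 7 rose and 5 fell, and without hypoxic GM replicate A or B 2 rose and 1 or 0 fell. With all libraries kept, the rises with DM in hypoxia were led by Myog (1.58 ± 0.28) and Igfbp5 (1.15 ± 0.27). The falls were led by Ezr (-0.98 ± 0.22) and Myc (-0.72 ± 0.18). Myog was at 4.49 FPKM in replicate A and 2.14 FPKM in replicate B of hypoxic DM, against 0.342 and 0.442 FPKM in hypoxic GM. Without replicate A of hypoxic DM the changes were 0.68 for Igfbp5, -0.60 for Ezr and -0.43 for Myc. The calls of these 3 genes were lost without either hypoxic GM library. With hypoxia in GM 8 were lower and 2 higher (5 without either hypoxic DM library, 1 without normoxic GM replicate A or hypoxic GM replicate B), and the median was -0.36. Myog (-3.09 ± 0.28) and Tnni2 (-2.14 ± 0.16) led the falls, and Aldoa (1.24 ± 0.14) and Gdnf (1.12 ± 0.23) rose; Gdnf was not called without normoxic GM replicate A (adjusted p 0.0575) or hypoxic GM replicate B (0.0585). With hypoxia in DM 15 were lower, at a list median of -3.51, led by Tnnc2 (-9.59 ± 0.28) and Tnni2 (-9.30 ± 0.16), and the other 3 did not pass. Without replicate A of hypoxic DM, 2 were higher. Igfbp5 lost its call without some single libraries with DM in normoxia and with hypoxia in either medium. So did Tnnt3 with hypoxia in GM and Gdnf with hypoxia in DM. With hypoxia in DM Igfbp5 was at -1.29 without replicate A and -0.35 without replicate B of hypoxic DM. The list overlaps with the myogenic regulatory factors in Myog and Myf6.

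Of 18 cofactor genes, 17 were tested. With DM in normoxia 8 were lower and 3 higher (7 after median-of-ratios scaling), and the median was -0.14. There 41% of all tested genes were called lower and 25.5% higher, and their median was -0.20. The shares for the other comparisons are those given above. Among the cofactors Tle2, a Groucho corepressor, fell most with DM in normoxia (-3.56 ± 0.11), followed by the methyltransferase gene Kmt2a (-1.12 ± 0.16). Tle3, a relative of Tle2 (0.94 ± 0.12), and Wdr5 (0.65 ± 0.10) rose. With hypoxia in DM 5 were lower and 4 higher, and Tle2 (1.16 ± 0.11) and Tle3 (-1.35 ± 0.12) again had opposite signs. Tle2 was at 43.5 and 37.1 FPKM in normoxic GM and 2.58 and 2.40 FPKM in normoxic DM. Hypoxia in GM lowered 7, led by Tle2 (-1.45 ± 0.11) and Sobp, a Six-binding protein gene (-1.12 ± 0.17); without hypoxic GM replicate A 4 were lower. With DM in hypoxia 2 fell, Tle2 (-0.95 ± 0.11) and Ski (-0.29 ± 0.07), and Rbbp5 rose (0.32 ± 0.09). Those counts were small and unstable: leaving out a library gave 0 to 3 higher and 1 to 4 lower, and neither Ski nor Rbbp5 was called without either hypoxic GM library (adjusted p 0.0805 to 0.161).

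**Figure D5:**
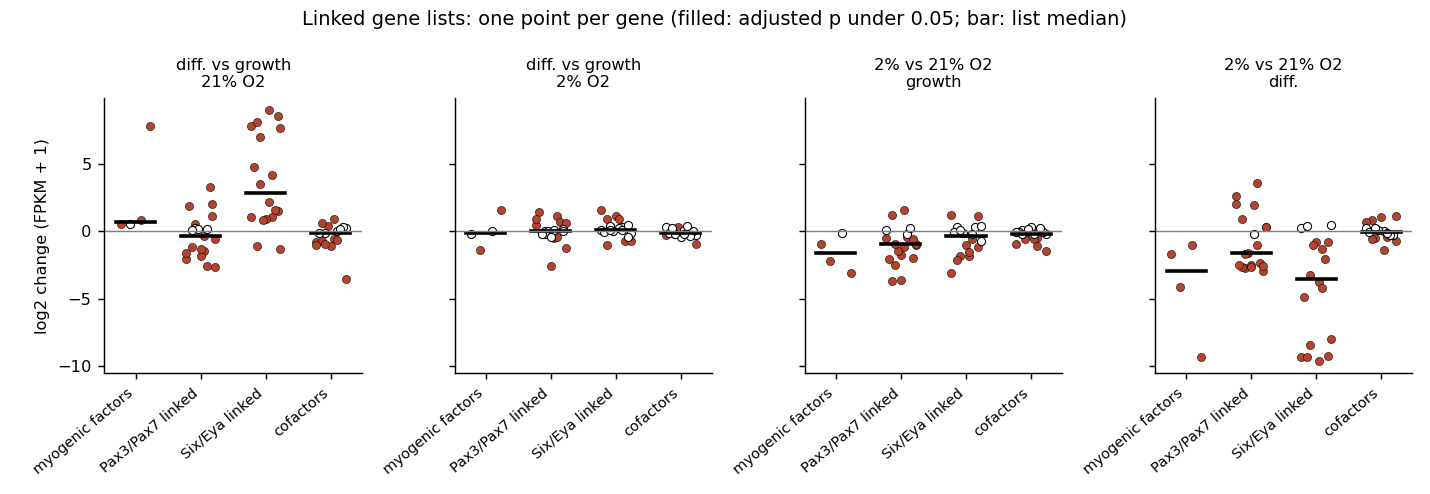
Change of each tested gene of 4 lists on the log2(FPKM + 1) scale (vertical axis) in the 4 comparisons; 1 point per gene, filled where the adjusted p is under 0.05, with a bar at the list median. The Six-Eya linked genes have a median of 2.85 for the medium change in normoxia and -3.51 for hypoxia in DM, while the cofactor medians lie between -0.19 and -0.01.

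The genes with the most similar profiles were found by Pearson's r of log2(FPKM + 1) over the 8 libraries, as a description, since libraries of 1 group are not independent points. For Pax7 Stard10 (0.995) was among them, for Six4 they were Ppfibp1 (0.986) and Vav3 (0.984), and for Six5 they were Ube2r2 and Crtap (each 0.997). Crtap had 67.0 FPKM in normoxic GM, 92.0 in hypoxic GM, 16.7 in normoxic DM and 60.6 in hypoxic DM, the order of Six5. For Eya1 they were Mylk and Kctd12b (each 0.994), for Eya3 Wdr62 (0.969) and Tfdp1 (0.961), and for Eya4 Top2b (0.967) and Slmap (0.955). Among the members themselves Pearson's r was 0.879 for Six4 and Eya1, 0.862 for Pax7 and Eya1, 0.397 for Six5 and Eya1 and 0.0239 for Six4 and Six5. By Spearman's rho the order was another, at 0.31, 0.595, 0.619 and -0.476 for the same pairs.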

How the data were processed

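RNA was measured in 8 C2C12 libraries, 2 in each of 4 groups; the 8 H3K27me3 and 8 input libraries of the series were not analysed here. The authors deposited FPKM values per gene, 1 column per library. The submitters' processing notes name STAR 2.5.1b, Cufflinks 2.2.1 and build mm9, with no roles. Neither the annotation, nor whether counting was stranded, nor how libraries were scaled is given in the sources used here. The deposited FPKM values summed to between 480018 and 534167 per library; absolute depth is unknown, and relative depth was taken from the commonest ratio of values at or under 0.5 FPKM.

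Genes with a mean of at least 1 FPKM in a group (12389) were tested in limma (version 3.58.1, under R 4.3.3) as log2(FPKM + 1), using 4 group means, an intensity trend, two-sided tests and Benjamini-Hochberg adjustment within each of 5 contrasts at 0.05. The fit was tested on simulated data. Ratios, steps, motifs and figures were made with Python 3.11.15.

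The members and lists were chosen with earlier results of these data known. Named genes are the 9 members, the 4 myogenic regulatory factors, the 2 largest rises and falls among called genes of a list in a contrast, the 2 most similar genes per tested member, Car9 and Ankrd37 for the oxygen label (Ankrd37 was also higher in all hypoxic libraries) and cell type markers. Dmpk, Mnat1 and Bhmg1, neighbours of Six5 and Six4, were added after values were seen. Some genes that these rules name are not reported here.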

Additional observations from a re-analysis of the deposited data

Results flagged for a closer look

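For 4 genes the change with DM differed between 2% and 21% oxygen by the test of the difference itself, in limma. On the log2(FPKM + 1) scale the hypoxic minus the normoxic change was 1.54 for Six5, 1.26 for Six4, 0.67 for Eya1 and 0.65 for Eya4. Six5 fell at both oxygen levels and by less in hypoxia, Six4 and Eya1 fell in normoxia alone past the threshold, and Eya4 passed the threshold at neither level. Across all tested genes 54.1% had such a difference in either direction. The differences of Eya1 and Eya4 did not pass after median-of-ratios scaling, and that of Eya4 was also lost without some single libraries. With 2 libraries in a group, no group was large enough for a check of single outlying libraries.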

How the results depend on the processing

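The counts of tested members past the threshold were recomputed under 7 other settings and with each of the 8 libraries left out. The 1 count that moved by more than 1.5 times was that of the difference between medium changes, from 4 to 2 after median-of-ratios scaling. With 1 library left out, the counts ran from 4 to 5 for the medium change in normoxia, 2 to 2 for that in hypoxia, 3 to 5 for hypoxia in GM, 2 to 2 for hypoxia in DM and 3 to 4 for the difference. Where a group keeps 1 library, it is assumed to vary like the other groups. Of 444 values of single members under these settings, 415 kept their direction and side of the threshold, 15 lost the threshold, 4 gained it and 10 changed sign, none of them called. Median-of-ratios scaling turned Eya3 to 0.16 for the normoxic medium change, 0.013 for hypoxia in GM, -0.070 for hypoxia in DM and -0.082 for the difference; it turned Eya1 to -0.15 for hypoxia in DM and Pax7 to -0.21 for the difference. Upper-quartile scaling turned Eya3 to 0.029 for the normoxic medium change and 0.063 for hypoxia in GM, Eya1 to -0.024 for hypoxia in DM and Pax7 to -0.12 for the difference. With the replicate block the numbers of members called were 4, 2, 4 and 2 in the 4 comparisons and 3 for the difference, where Eya4 was lost (adjusted p 0.075). A minus B differences correlated between groups at -0.166 to 0.042, so no strong effect shared by libraries of 1 letter was seen. Whether the letters pair the libraries cannot be told from these values. Without the expression minimum Eya2 was called for the normoxic medium change (-0.14, adjusted p 0.00556), for hypoxia in GM (-0.14, adjusted p 0.00977) and for the difference (0.16, adjusted p 0.0144), on 1 to 6 steps per library, while Pax3 and Six2 were not called. Of 740 counts of list genes under these settings, 648 stayed within 1.5 times. Higher genes made up 38.4% of the calls for the normoxic medium change, or 53.2% after median-of-ratios scaling. For hypoxia in GM these shares were 32.6% and 43.2%, for hypoxia in DM 57.5% and 46.7%, and for the difference 65.5% and 47.7%. The cause of these shifts was not tested.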

Other observations

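Of 11 other Pax, Six-family and Dach genes, none reached 1 FPKM in any library. Dach2, a cofactor gene of the Six-Eya network, was at 0.712 and 0.577 FPKM in hypoxic DM and at 0 to 0.0234 FPKM in the other 6 libraries. Pax8 was at 0.109 and 0.259 FPKM in hypoxic DM and at most 0.0405 FPKM elsewhere. Pax6 was the only one of them above 0 in all 8 libraries, at 0.0591 to 0.394 FPKM. Pax1, Pax2, Pax4, Six6 and Dach1 were listed at 0 in every library.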
